A study of Rattus norvegicus with 33 samples.

Results

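Mammary glands of female Sprague-Dawley rats (an outbred strain) at the end of lactation were compared with glands of rats at the pubertal stage, on 8 of the 33 Affymetrix whole-transcript arrays of a series that follows the gland through 6 stages of life. The lactation group held 3 arrays from rats at lactation day 28, which was postnatal day 146. The pubertal group held 5 arrays from rats at postnatal day 63. Arrays are numbered within each group, and the numbers carry no order. All rats were vehicle controls of a parent study of environmental chemicals and received olive oil by gavage, at 1 mL by the age of the lactation group and at 0.5 mL by that of the pubertal group. Total RNA came from the fifth caudal glands of both sides, so each sample holds the RNA of all cell types of the pulverised tissue. Rats of a stage were killed on the same day, at random in the estrous cycle. Age, oil volume, collection day, and pregnancy with nursing all differ between the groups and cannot be told apart. All 3 lactation arrays and pubertal arrays 4 and 5 belong to batch 2, pubertal arrays 1 to 3 belong to batch 1, and all 8 RNAs were extracted with the Promega kit. Values are log2 signals, so a difference of 1 is a factor of 2, and 10986 genes represented by a probe set of a single gene symbol passed a filter on low signal, of 18166 such genes.

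Lactation is the phase in which alveolar luminal cells make and secrete milk, while the myoepithelial cells around them contract to eject it. Prolactin acts through its receptor, the kinase JAK2 and the transcription factor STAT5 to switch on milk protein genes, with glucocorticoid and insulin as partners. At puberty the gland is instead a branching duct system in fat, driven by estrogen, growth hormone and IGF-1 and by paracrine signals of the EGF, FGF and Wnt families. When suckling stops, milk stasis activates STAT3, and alveolar cells die during involution while fat cells and matrix return.

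The promoters of 4 casein genes are shown first, because the caseins held the steepest rise of the comparison and also members that were not called. Caseins are the main proteins of milk, and their genes lie in 1 cluster. Windows of 300 bases, 250 before and 50 after the annotated gene start, come from RefSeq on the GRCr8 build, written 5′ to 3′ along the gene, and capitals mark the letters TTCNNNGAA, the palindrome that STAT5 proteins recognise. Csn1s2b lies at chr14:20545569-20545868 on the minus strand, Csn1s2a at chr14:20574422-20574721 on the minus strand, Csn2 at chr14:20601574-20601873 on the plus strand and Csn1s1 at chr14:20638800-20639099 on the minus strand.
Csn1s2b: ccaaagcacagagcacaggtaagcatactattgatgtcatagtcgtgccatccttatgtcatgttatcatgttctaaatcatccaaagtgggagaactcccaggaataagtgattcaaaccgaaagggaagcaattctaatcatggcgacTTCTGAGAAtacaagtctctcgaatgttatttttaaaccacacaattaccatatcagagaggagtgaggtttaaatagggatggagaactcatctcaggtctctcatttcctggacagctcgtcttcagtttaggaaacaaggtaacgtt
Csn1s2a: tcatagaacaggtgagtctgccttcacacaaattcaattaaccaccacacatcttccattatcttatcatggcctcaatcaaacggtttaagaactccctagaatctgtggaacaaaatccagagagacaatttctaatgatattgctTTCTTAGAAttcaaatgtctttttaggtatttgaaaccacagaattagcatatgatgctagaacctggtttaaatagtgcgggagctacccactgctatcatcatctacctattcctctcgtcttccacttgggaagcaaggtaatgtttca
Csn2: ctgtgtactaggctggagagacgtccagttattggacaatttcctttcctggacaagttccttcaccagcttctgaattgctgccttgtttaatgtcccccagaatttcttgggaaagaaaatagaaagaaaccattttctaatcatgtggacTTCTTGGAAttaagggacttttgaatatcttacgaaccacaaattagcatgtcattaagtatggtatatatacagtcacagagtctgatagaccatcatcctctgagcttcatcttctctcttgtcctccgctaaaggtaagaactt
Csn1s1: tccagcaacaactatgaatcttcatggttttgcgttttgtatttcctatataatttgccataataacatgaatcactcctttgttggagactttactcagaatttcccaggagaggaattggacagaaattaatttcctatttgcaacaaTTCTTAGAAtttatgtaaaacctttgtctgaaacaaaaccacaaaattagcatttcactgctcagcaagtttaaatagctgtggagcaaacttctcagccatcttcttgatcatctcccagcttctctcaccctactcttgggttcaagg

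Each of these 4 windows held TTCNNNGAA at 1 place, beginning 100 bases before the start in Csn1s2b, 102 in Csn1s2a, 97 in Csn2 and 100 in Csn1s1. Of all 33469 RefSeq promoter windows of that length, 8.87% held it on either strand. The letters were not in the windows of Csn3, the kappa-casein gene, or of Wap and Lalba, whose products are whey proteins, so 4 of the 7 milk protein windows searched held them. TATAAA was in 0 of the 7 windows, on either strand, against 14.2% of all windows. A match describes letters in a window and shows no binding.

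Across the gland, 4472 of the 10986 genes passed adjusted p under 0.05 in a limma model of all 33 arrays with batch terms, which is 40.7%. In that model 2611 genes were higher in lactation (23.8%) and 1861 were lower (16.9%). The rises were smaller than the falls, with medians of 0.52 and -0.74 on the log2 scale, and at least 2-fold differences were found for 317 genes upward (2.89%) and 580 genes downward (5.28%). Of the genes past 16-fold, 10 rose and 0 fell. Centring each array on its median gave 3432 higher and 1460 lower genes, and quantile normalization applied again gave 2093 higher and 1892 lower. The share of calls that were higher thus depended on the scaling. It was 58.4% as deposited, 70.2% after centring and 52.5% after quantile normalization. Batch 2 alone, 3 lactation arrays against 2 pubertal arrays, gave 966 higher (8.79%) and 1053 lower genes (9.58%). On simulated data with the same spread at every stage, the batch 2 fit held more false calls than its threshold allows and missed most small changes. Both fits called 1841 genes in the same direction (16.8%; 8.37% upward and 8.38% downward) and 0 in opposite directions, but they share all the lactation arrays. In batch 2 18.4% of genes passed in either direction and 35.1% had an unadjusted p under 0.05, and 55.1% had a positive difference, against 55.3% in the model of all arrays. The 3 lactation values lay above all 5 pubertal values for 18.4% of genes and below them for 17.4%, or 35.9% in all. Set against nulliparous glands with the same lactation arrays, 21.4% of genes were higher and 13.5% lower. No nulliparous array lies in batch 2: they belong to batch 1 and to batch 3, whose RNA was extracted with the Zymo kit. Every comparison with nulliparous glands below therefore rests on the batch terms. Where a gene below passed in the model of all arrays but not in batch 2, this is stated with the batch 2 value.

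**Figure D1:**
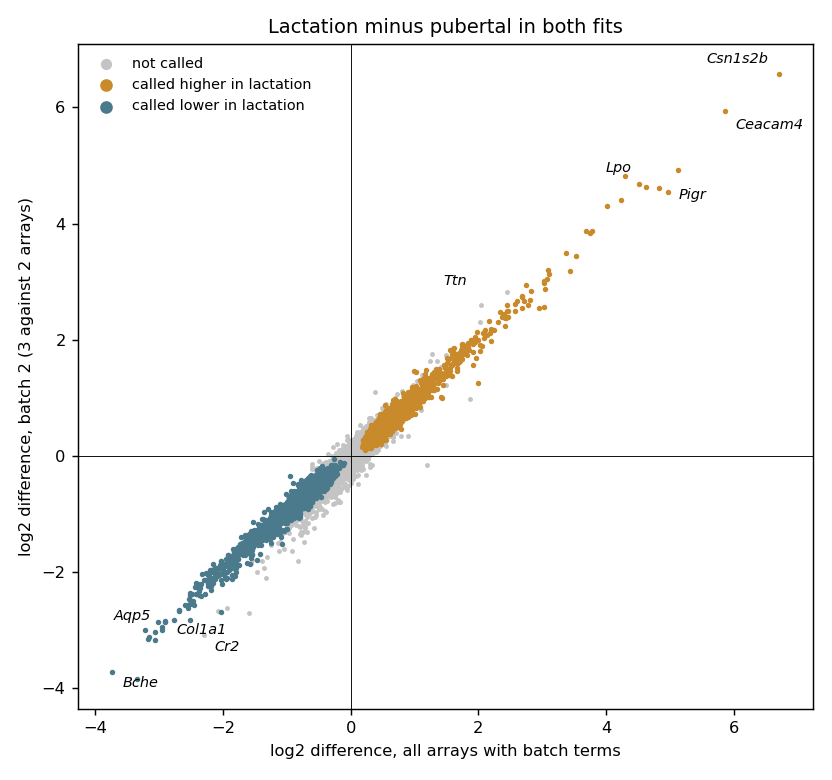
Each point is 1 of the 10986 genes, with its log2 difference, lactation minus pubertal, in the model of all arrays with batch terms on the horizontal axis and in batch 2 alone (3 lactation against 2 pubertal arrays) on the vertical axis. Coloured points passed adjusted p under 0.05 in the model of all arrays. Csn1s2b, Ceacam4, Pigr and Lpo lie at the upper right, Bche, Aqp5 and Col1a1 at the lower left, Ttn, a muscle gene, is higher in both without a call, and Cr2, a B cell gene, is lower in both without a call in the model.

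Single arrays stood apart in 4 ways that touch results below. Skeletal muscle genes were raised in lactation arrays 1 and 3: the mean of the 12 muscle genes on the array was 8.28, 6.51 and 9.27 in lactation arrays 1 to 3, against 6.44 to 6.54 in the pubertal arrays. Ttn, the giant spring protein of the sarcomere, had 9.37, 6.01 and 10.18 in lactation and 5.53 to 5.71 in pubertal glands. Of 11 muscle genes that passed the filter limma called 0, and 2 had an unadjusted p under 0.05. Without lactation array 2 Ttn was called higher (3.70, adjusted p = 0.0197). Genes that respond within minutes to stress or growth factors were high in lactation array 2, with list means of 9.07, 9.75 and 8.95 in lactation and 8.86 to 9.28 in pubertal glands. Pubertal arrays 1 and 5 had low casein and cell division values, with casein means of 9.85 and 10.40, against 11.58 to 11.77 in pubertal arrays 2 to 4. B cell genes were high in the batch 2 pubertal arrays, with list means of 8.16 and 7.77 in arrays 4 and 5, against 6.56 to 7.03 in arrays 1 to 3. The part of each in the differences described below was not tested beyond leaving out arrays and the batch 2 values.

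**Figure D2:**
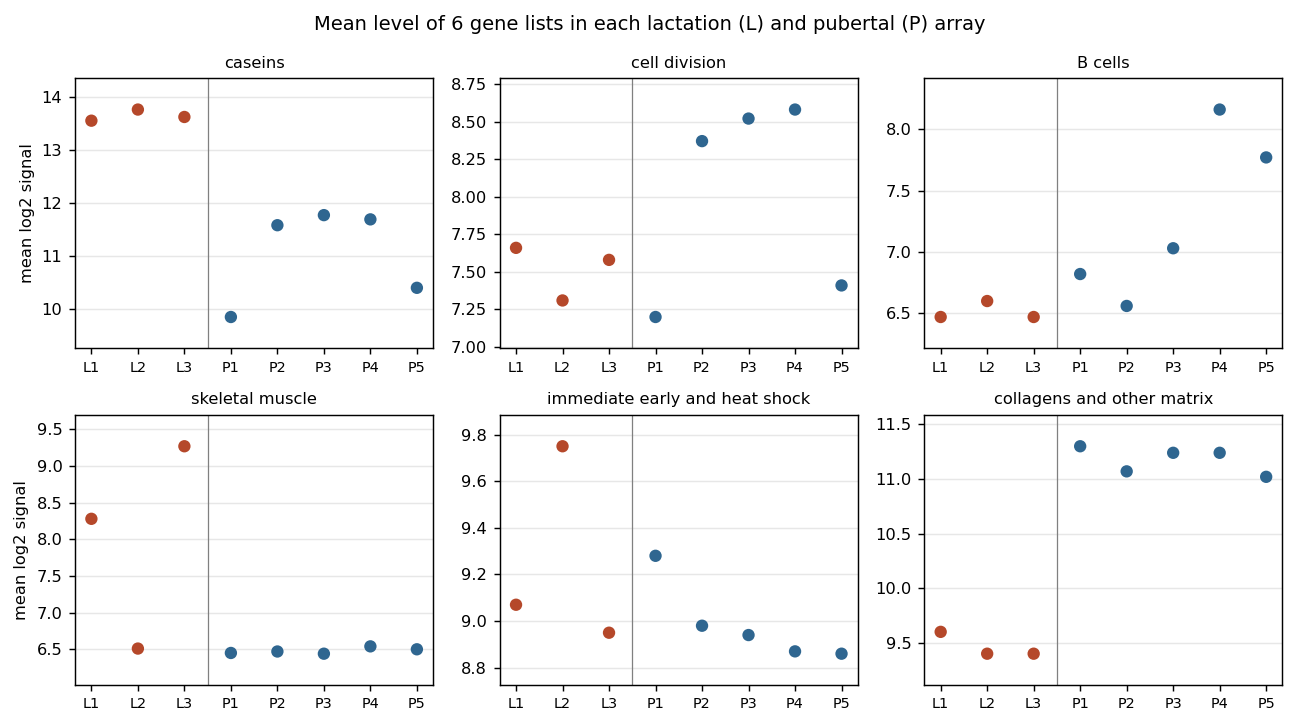
Mean log2 signal of 6 gene lists in each array, lactation arrays L1 to L3 left of pubertal arrays P1 to P5. The muscle panel shows L1 and L3 above all other arrays, the immediate early panel shows L2 on top, the casein and cell division panels show P1 and P5 below P2 to P4, and the collagen panel shows every lactation array under every pubertal array.

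Casein transcripts were at the top of the array range in all lactating glands, and in pubertal glands the caseins ranged from near background to almost the same height. Csn1s2b had 13.87, 14 and 13.95 in lactation, against 7.45, 7.12, 7.56, 7.46 and 7.29 in pubertal glands. No pubertal gland came near the lactating level of this casein: the difference was 6.71 ± 0.19 (SE), with limma adjusted p = 2.17e-21, and 6.57 ± 0.11 in batch 2 (adjusted p = 3.35e-07). Csn1s2a had 13.45, 13.87 and 13.68 in lactation, against 6.76, 11.32, 11.49, 11.17 and 6.81 in pubertal glands. For Csn1s2a pubertal glands fell into a low pair, arrays 1 and 5, and a high trio, and the difference of 4.52 ± 0.90 (adjusted p = 0.0002) averages over both. Csn2, beta-casein, had 13.12, 13.48 and 13.20 in lactation, against 8.70, 12.68, 12.86, 12.89 and 11.12 in pubertal glands. Its difference of 1.99 ± 0.74 passed the test (adjusted p = 0.0314) but not in batch 2 (1.26 ± 0.43, adjusted p = 0.0833), and it no longer passed without any 1 lactation array (1.88 to 2.06) or without pubertal array 5 (1.93).

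The remaining caseins were high at both stages. Csn1s1 had 13.69, 13.73 and 13.65 in lactation, against 13.20 to 13.48 in pubertal glands, a difference of 0.31 ± 0.52 in the model (adjusted p = 0.663) and 0.29 ± 0.07 in batch 2 (adjusted p = 0.033). Csn3 had 13.62, 13.71 and 13.61 in lactation, against 13.12, 13.45, 13.48, 13.52 and 13.41 in pubertal glands, and did not pass (0.56 ± 0.29, adjusted p = 0.132). All 5 caseins were higher in every lactation array than in every pubertal array, beside 18.4% of all genes tested. The highest value in the deposited table is 14.23, and how far these values are compressed near that end was not tested. Set against nulliparous glands at postnatal day 181, with the same lactation arrays, Csn1s2b was 6.41 higher (adjusted p = 4.08e-19), Csn1s2a 2.56 higher (adjusted p = 0.0541) and Csn2 1.45 higher (adjusted p = 0.189).

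**Figure D3:**
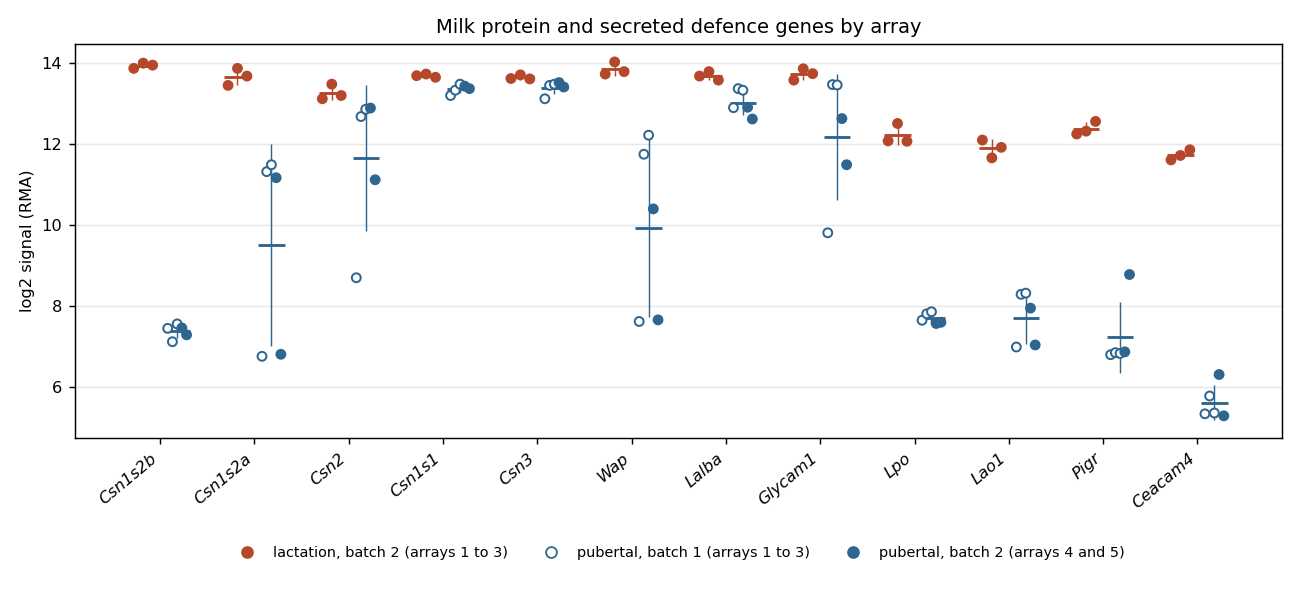
Log2 signal of 12 genes in each array, lactation to the left of pubertal for every gene, filled points for batch 2 and open points for batch 1, with a bar at the mean and a line of 1 SD either way. Csn1s2b, Lpo, Ceacam4 and Pigr separate the groups by more than 3 units, while Csn1s1 and Csn3 lie above 13 in all 8 arrays and Csn1s2a and Wap are split among the pubertal glands.

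Among whey and other secreted proteins, 4 of 13 tested genes rose (23.8% of all genes did), 3 fell (16.9%) and 6 were not called. Batch 2 called 7 of the 13 higher (8.79% of all genes) and 2 lower (9.58%). Wap, whey acidic protein, had 13.73, 14.03 and 13.79 in lactation, against 7.62, 11.75, 12.22, 10.40 and 7.66 in pubertal glands. Wap thus showed the same low pubertal arrays, 1 and 5, as Csn1s2a, and rose by 4.30 ± 0.79 (adjusted p = 8.63e-05). Lpo, lactoperoxidase, which uses hydrogen peroxide to make antibacterial oxidants in milk, had 12.08, 12.51 and 12.07 in lactation, against 7.65, 7.81, 7.86, 7.57 and 7.60 in pubertal glands. Lpo rose by 4.62 ± 0.21 (24.7-fold, adjusted p = 4.89e-16). Folr1, a folate-binding protein, rose by 2.69 ± 0.22 (adjusted p = 3.58e-10), and Spp1, osteopontin, by 1.04 ± 0.22 (adjusted p = 0.000361).

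Several milk protein genes were high in most pubertal glands too. Lalba, alpha-lactalbumin, the regulatory subunit of lactose synthase, had 13.68, 13.79 and 13.58 in lactation, against 12.90, 13.37, 13.33, 12.91 and 12.62 in pubertal glands. The Lalba arrays did not overlap, yet the difference of 0.99 ± 0.65 did not pass in the model (adjusted p = 0.24), while batch 2 gave 0.92 ± 0.11 (adjusted p = 0.00275). Glycam1, a mucin-like milk protein, had 13.58, 13.86 and 13.74 in lactation, against 9.81, 13.47, 13.46, 12.63 and 11.49 in pubertal glands (1.75 ± 1.26, adjusted p = 0.284). Batch 2 called Glycam1 higher (1.67 ± 0.29, adjusted p = 0.00944). Lcn2, lipocalin 2, an iron-scavenging defence protein, averaged 13.42 ± 0.09 in lactation and 12.71 ± 0.26 in pubertal glands (SD, n = 3 and 5). It did not pass in the model (adjusted p = 0.199), while batch 2 gave 0.77 ± 0.1 (SE, adjusted p = 0.00393). The model's standard errors use the spread within all 6 stages. The 3 members that fell were Rnase4 and Ang, which encode secreted ribonucleases, and Sncg, gamma-synuclein. Sncg had 9.04, 8.02 and 8.62 in lactation, against 10.94 to 11.49 in pubertal glands, a fall of -2.77 ± 0.25 (adjusted p = 1.67e-09). Fat cells also express Sncg. The Ang call was not made in batch 2 (-0.52, adjusted p = 0.165) and was lost when lactation array 2 was left out (-0.36, adjusted p = 0.215) and also without pubertal array 1 (-0.49) or 5 (-0.50).

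Several of the steepest rises were of genes outside the milk protein lists or of transport into milk. Ceacam4, a member of the carcinoembryonic antigen family of adhesion molecules, had 11.61, 11.72 and 11.86 in lactation, against 5.34, 5.78, 5.36, 6.31 and 5.29 in pubertal glands, a rise of 5.86 ± 0.26 (adjusted p = 4.16e-16). Pigr, the receptor that carries dimeric IgA across the epithelium into milk, had 12.25, 12.32 and 12.56 in lactation, against 6.80, 6.85, 6.83, 6.87 and 8.78 in pubertal glands. Pigr rose by 4.97 ± 0.29 (adjusted p = 2.58e-13), and pubertal array 5 stood above the other pubertal glands. Lao1, an L-amino acid oxidase that in mouse milk releases hydrogen peroxide, had 12.10, 11.66 and 11.92 in lactation, against 6.99, 8.29, 8.32, 7.95 and 7.04 in pubertal glands, and rose by 4.23 ± 0.31 (adjusted p = 4.11e-11). Pubertal arrays 1 and 5 were again the lowest.

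Further rises were steep and without overlap. For Oprpn and Il1rn, as for Ceacam4, Wfdc3 and Csn1s2b, every pubertal value lay under 7.645, the level used to filter low signal, so the size of the rise rests on pubertal signals not shown to be above background. Oprpn and Il1rn passed that filter through the 3 lactation arrays and 1 prepubertal array, so a difference was built into their selection. Their p-values are therefore left out here. A further 12 genes had no array above that level outside lactation. All 12 were called higher, which their selection favoured and which is not a result about them. Other genes may also have needed the lactation arrays to pass, and these were not counted. Oprpn, which encodes the precursor of opiorphin-type peptides, had 9.23, 10.22 and 9.40 in lactation, against 4.49 to 4.89 in pubertal glands (5.13 ± 0.64). Il1rn, the interleukin-1 receptor antagonist, had 10.49, 10.36 and 10.99 in lactation, against 5.98 to 6.44 in pubertal glands (4.82 ± 0.39). C3, the central complement component, had 12.48, 12.09 and 12.99 in lactation, against 8.32 to 9.53 in pubertal glands (3.74 ± 0.34, adjusted p = 1.98e-09). Wfdc3, of the same four-disulfide core family as Wap, had 10.13, 11.52 and 10.18 in lactation, against 6.66 to 6.89 in pubertal glands (3.78 ± 0.27, adjusted p = 2.97e-11). These genes were also higher in lactation than in nulliparous glands at day 181, by 5.32 for Oprpn, 4.75 for Il1rn, 2.91 for C3 and 3.14 for Wfdc3.

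Of 12 tested genes of the milk fat globule membrane and droplet secretion, 5 rose (23.8% of all genes did), 1 fell (16.9%) and 6 were not called. Cidea, which enlarges lipid droplets and is needed in mouse for normal milk fat secretion, had 12.01, 12.90 and 12.18 in lactation, against 9.69 to 10.09 in pubertal glands (2.33 ± 0.25, adjusted p = 2.88e-08). Plin2, which coats droplets, had 12.86, 13.30 and 13.06 in lactation, against 11.38 to 11.96 in pubertal glands (1.39 ± 0.20, adjusted p = 2.41e-06). Xdh, xanthine dehydrogenase, which anchors the secreted droplet to the membrane, rose by 0.88 ± 0.16 (adjusted p = 0.000108), and Mfge8, lactadherin, by 0.77 ± 0.12 (adjusted p = 6.51e-06). Btn1a1, butyrophilin, their partner at the apical membrane, had 12.52, 12.07 and 12.40 in lactation, against 12.36, 12.76, 12.70, 12.13 and 12 in pubertal glands, and overlapped (0.33 ± 0.68, adjusted p = 0.729). The member that fell was Cidec, the Cidea relative of fat cells, with 8.89 to 9.29 in lactation and 10.08 to 10.81 in pubertal glands (-1.40 ± 0.23, adjusted p = 2.26e-05).

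Fatty acid synthesis gave 7 rises and 4 falls among 18 tested genes, and triglyceride synthesis 3 rises and 4 falls among 10. Over all genes tested, 23.8% rose and 16.9% fell. The 4 falls in fatty acid synthesis were all of elongation or desaturation. Elovl6, an elongase of saturated fatty acids, had 7.90, 7.28 and 7.20 in lactation, against 9.13 to 9.81 in pubertal glands (-2.15 ± 0.35, adjusted p = 1.71e-05). Scd, stearoyl-CoA desaturase, had 11.68, 9.66 and 11.38 in lactation, against 12.64 to 13.21 in pubertal glands (-2.03 ± 0.61, adjusted p = 0.00858). Its call rested on lactation array 2, without which the difference was -1.41 (adjusted p = 0.0986), batch 2 did not call it (-1.80, adjusted p = 0.0514), and against nulliparous glands Scd was 0.34 higher in lactation (adjusted p = 0.741). Fads2, the delta-6 desaturase, fell by 1.79 on the log2 scale (adjusted p = 4.61e-05), or by 1.17 without lactation array 2, and Fads1 by 0.88 (adjusted p = 0.00809), though without lactation array 2 Fads1 was at -0.40 (adjusted p = 0.18) and in batch 2 at -0.97 (adjusted p = 0.154).

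The rises included enzymes that activate acetate and fatty acids. Acss2, which activates acetate, rose by 1.28 ± 0.25 (adjusted p = 0.000143), and Acsl4, a long-chain acyl-CoA synthetase, had 11.56, 11.06 and 10.94 in lactation, against 9.33 to 10.10 in pubertal glands (1.23 ± 0.18, adjusted p = 2.69e-06). Gk, glycerol kinase, which makes glycerol 3-phosphate, had 12.01, 12.66 and 12.02 in lactation, against 9.61 to 10.60 in pubertal glands (2.14 ± 0.27, adjusted p = 5.1e-07). Gpd1, which makes the same compound from a glycolytic intermediate, fell by 1.06 (adjusted p = 0.000112). Dgat2, which adds the last fatty acid, had 8.71, 8.69 and 8.56 in lactation, against 10.63 to 11.30 in pubertal glands (-2.01 ± 0.21, adjusted p = 1.72e-08), and Agpat2 fell by 1.42 (adjusted p = 2.8e-06). Gpat4 rose by 0.85 ± 0.11 (adjusted p = 5.48e-07) and Lpin2 by 0.96 ± 0.13 (adjusted p = 1.16e-06), both enzymes of earlier steps of the same path. Fat cells share many of these enzymes, and markers of white fat cells fell in the same glands, as given below. The lists overlap: Gpd1, Lpin1, Thrsp and Cidec are counted among the white fat genes too. The part of fat cell content in these falls was not tested.

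Of 15 tested genes of sterol synthesis 11 were higher (23.8% of all genes were) and 0 lower, with a median difference of 0.87, against a median of 0.06 over all genes. Sqle, squalene epoxidase, had 8.69, 9.02 and 8.95 in lactation, against 7.09 to 7.53 in pubertal glands (1.59 ± 0.23, adjusted p = 3.78e-06). Lss, which closes the sterol ring, rose by 0.99 ± 0.12 (adjusted p = 2.41e-07) and Nsdhl, a later enzyme, by 1.17 ± 0.15 (adjusted p = 7.64e-07). Idi1, isopentenyl-diphosphate isomerase, had 11.39, 8.48 and 8.20 in lactation, against 6.51 to 7.31 in pubertal glands. All 3 lactation arrays exceeded every pubertal array, but array 1 was almost 3 units above the other two, and the difference was 2.24 ± 0.44 (adjusted p = 0.000201) in the model and 2.16 ± 0.85 (adjusted p = 0.116) in batch 2, and 1.22 without array 1. Batch 2 called 5 of the 15 sterol genes higher (8.79% of all genes). Against nulliparous glands 11 were higher (21.4% of all genes were).

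Lactose synthesis and glucose supply held a few small rises. B4galt1, the catalytic subunit of lactose synthase, had 9.99, 10.54 and 10.21 in lactation, against 9.51 to 9.78 in pubertal glands (0.67 ± 0.12, adjusted p = 7.91e-05). Slc2a1, the glucose transporter GLUT1, rose by 0.80 ± 0.18 (adjusted p = 0.000672), with arrays that overlapped, and Hk2, a hexokinase, by 0.85 ± 0.18 (adjusted p = 0.00033), or 0.53 without lactation array 2. Batch 2 did not call Hk2 (0.76, adjusted p = 0.118). Of 10 tested genes 4 rose (23.8% of all genes did) and 1 fell (16.9%).

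Mineral and vitamin transport into milk held larger ones. Abcg2, the pump that exports riboflavin and many drugs into milk, had 10.19, 10.61 and 10.48 in lactation, against 6.57, 7.78, 7.69, 7.82 and 7.11 in pubertal glands (3.03 ± 0.28, adjusted p = 2.86e-09). Slc39a8, a zinc and manganese importer, had 10.94, 11.32 and 10.96 in lactation, against 8.56 to 9.25 in pubertal glands (1.86 ± 0.15, adjusted p = 1.11e-10). Slc11a2, the divalent iron transporter, rose by 0.69 ± 0.10 (adjusted p = 5.91e-06), and Slc30a4, a zinc exporter whose loss gives zinc-poor milk in mouse, by 0.81 ± 0.23 (adjusted p = 0.00687), or 0.46 without lactation array 2 (adjusted p = 0.126) and 0.87 in batch 2 (adjusted p = 0.106). Heph, a copper-dependent iron oxidase, fell by 1.07 (adjusted p = 2.63e-05). In all, 7 of 14 rose (23.8% of all genes did) and 2 fell (16.9%).

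The water channels Aqp3 and Aqp5 changed in opposite directions. Aqp3, an aquaglyceroporin, had 10.39, 9.77 and 10.25 in lactation, against 7.33 to 7.60 in pubertal glands, a rise of 2.71 ± 0.25 (adjusted p = 2.86e-09). Aqp5, a water channel that mouse mammary ducts lose in pregnancy, had 8.75, 7.43 and 7.72 in lactation, against 11.50, 10.89, 10.47, 10.46 and 11.46 in pubertal glands, a fall of -2.95 ± 0.64 (adjusted p = 0.000504). Neither gene overlapped between the groups. Nherf1, a scaffold of apical membranes, rose by 1.00 ± 0.21 (adjusted p = 0.000392), and Ano1, a calcium-activated chloride channel, fell by 0.93 (adjusted p = 0.00275).

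Of 24 tested genes of amino acid and choline transport 5 were higher (23.8% of all genes were) and 10 lower (16.9%). Slc1a4, a neutral amino acid transporter, had 11.04, 10.32 and 10.91 in lactation, against 8.13 to 8.52 in pubertal glands (2.44 ± 0.15, adjusted p = 9.02e-13). Slc7a1, which imports arginine and lysine, had 9.52, 10.44 and 9.25 in lactation, against 8.34 to 8.59 in pubertal glands (1.37 ± 0.20, adjusted p = 4.51e-06). Slc7a5, the large neutral amino acid carrier, rose by 1.22 ± 0.29 (adjusted p = 0.00125), with overlapping arrays, and in batch 2 did not pass (1.02, adjusted p = 0.08). Slc1a5, the glutamine carrier related to Slc1a4, had 7.89, 8.46 and 7.53 in lactation, against 9.45 to 9.89 in pubertal glands (-1.45 ± 0.19, adjusted p = 6.18e-07). Slc36a2, a proton-coupled transporter of glycine and proline, fell by 1.81 (adjusted p = 3.28e-08), and Slc7a2 by 1.05 (adjusted p = 2.25e-05).

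Of 10 tested genes of serotonin, parathyroid hormone-related protein and calcium handling, 3 rose (23.8% of all genes did), 6 fell (16.9%) and 1 was not called. Cyp24a1, the enzyme that degrades active vitamin D and is itself induced by it, had 12.81, 13.22 and 12.37 in lactation, against 7.89, 9.68, 9.91, 9.24 and 7.73 in pubertal glands (4.01 ± 0.37, 16.1-fold, adjusted p = 2.81e-09). Vdr, the vitamin D receptor, rose by 1.03 ± 0.29 (adjusted p = 0.00536). Orai1, the store-operated calcium channel that supplies milk calcium in mouse, had 10.01, 11.07 and 10.61 in lactation, against 9.02 to 9.5 in pubertal glands (1.48 ± 0.18, adjusted p = 2.74e-07). Stim1, the sensor that opens Orai1, fell by 0.90 (adjusted p = 1.66e-06). Tph1, which makes serotonin, a local brake on milk secretion in the gland, had 7.17, 6.29 and 5.77 in lactation, against 10.20, 8.53, 8.13, 8.36 and 9.25 in pubertal glands (-2.51 ± 0.73, adjusted p = 0.00742). Pubertal arrays 1 and 5 were the highest for Tph1, as they were the lowest for Wap. Htr1b, a serotonin receptor, fell by 1.03 (adjusted p = 0.00203) and Pth1r, the receptor of parathyroid hormone-related protein, by 0.86 (adjusted p = 0.000112).

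Of 14 tested genes of the prolactin and STAT5 pathway, 2 rose and 4 fell (23.8% and 16.9% of all genes), and the falls included the receptors of prolactin and growth hormone. Prlr, the prolactin receptor, had 8.70, 7.89 and 8.50 in lactation, against 10.11, 9.91, 9.90, 9.62 and 10.02 in pubertal glands (-1.43 ± 0.31, adjusted p = 0.000521), a fall also seen in batch 2 (-1.46 ± 0.26, adjusted p = 0.0106). Erbb4, a neuregulin receptor that acts with STAT5 in mouse lactation, had 6.62, 6.0 and 6.17 in lactation, against 8.83 to 9.48 in pubertal glands (-2.54 ± 0.35, adjusted p = 2.19e-06). Ghr, the growth hormone receptor, fell by 1.17 (adjusted p = 0.000932). Stat5b averaged 10.48 ± 0.12 in lactation and 10.61 ± 0.16 in pubertal glands (SD, n = 3 and 5), with a model difference of 0.04 ± 0.11 (adjusted p = 0.801). Elf5, the transcription factor of alveolar fate, had 12.07, 11.55 and 12.15 in lactation, against 10.93 to 11.41 in pubertal glands, which did not overlap but did not pass either (0.71 ± 0.54, adjusted p = 0.307).

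Of 13 tested genes of steroid receptors and hormone-sensing luminal cells, 7 were lower (16.9% of all genes were), 0 were higher and 6 were not called, with a median difference of -1.25. Foxa1, which opens chromatin for the estrogen receptor, had 7.98, 8.63 and 8.19 in lactation, against 10.02 to 10.51 in pubertal glands (-1.75 ± 0.33, adjusted p = 0.000103). Cited1, an estrogen receptor coactivator, had 7.34, 7.70 and 7.03 in lactation, against 8.97, 10.58, 10.63, 10.74 and 9.64 in pubertal glands (-2.52 ± 0.54, adjusted p = 0.000466). Tbx3, a transcription factor of mammary identity, fell by 1.49 (adjusted p = 5.65e-05). Esr1, the estrogen receptor, averaged 8.77 ± 0.31 in lactation and 9.01 ± 0.19 in pubertal glands (SD, n = 3 and 5) and was not called (-0.07 ± 0.21, adjusted p = 0.824). Pgr, the progesterone receptor, had 7.76, 6.24 and 7.04 in lactation, against 10.99, 8.46, 8.09, 7.69 and 9.55 in pubertal glands. Pubertal arrays 1 and 5 were the highest for Pgr, array 4 lay within the lactation range, and the difference of -1.80 ± 0.75 did not pass (adjusted p = 0.0544). It passed without pubertal array 3 (-1.99, adjusted p = 0.0393), without pubertal array 4 (-2.23, adjusted p = 0.0287) or without lactation array 1 (-2.18, adjusted p = 0.0418). In these bulk samples fewer cells of a type and less RNA per cell cannot be told apart.

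Of 14 tested genes of the growth hormone and IGF axis 8 fell (16.9% of all genes did) and 1 rose. Igf1, the growth factor that mediates growth hormone action on ducts, had 10.71, 10.66 and 10.43 in lactation, against 12.09, 11.85, 11.94, 11.74 and 11.96 in pubertal glands (-1.28 ± 0.16, adjusted p = 3.94e-07). Igfbp6, an IGF-binding protein, fell by 1.73 (adjusted p = 1.43e-07), and Irs1, an adaptor of insulin and IGF receptors, by 1.05 (adjusted p = 0.000182). Insr, the insulin receptor, rose by 0.56 ± 0.17 (adjusted p = 0.00984).

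Of 22 tested luminal epithelial markers 9 rose (23.8% of all genes did) and 1 fell, with a median difference of 0.94. Krt8, a luminal keratin, had 10.37, 11.20 and 11.07 in lactation, against 9.11 to 9.85 in pubertal glands (1.91 ± 0.38, adjusted p = 0.00022). Krt7, another simple-epithelial keratin, had 8.97, 11.62 and 10.46 in lactation, against 6.98 to 7.92 in pubertal glands (2.68 ± 0.41, adjusted p = 8.35e-06). Krt18, the partner of Krt8, rose by 1.06 ± 0.37 (adjusted p = 0.0208), but not without lactation array 2 (0.75, adjusted p = 0.155) or in batch 2 (0.96, adjusted p = 0.0626). Prom1, a membrane protein of hormone-sensing luminal cells, fell by 1.86 (adjusted p = 6.55e-05). With only the 8 arrays in the model, 15 of the 22 were called higher, beside 1686 of all 10986 genes tested.

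Of 16 tested genes of tight junctions and polarity 10 rose (23.8% of all genes did) and 0 fell. Cldn3, Cldn4 and Cldn7, which rose, are counted among the luminal markers too. Tight junctions seal alveoli during lactation so that milk does not leak back. Ocln, occludin, had 11.01, 11.41 and 10.96 in lactation, against 9.65 to 10.21 in pubertal glands (1.22 ± 0.24, adjusted p = 0.000229). F11r, junctional adhesion molecule A, rose by 1.02 ± 0.13 (adjusted p = 3.18e-07), and Marveld3 by 1.18 ± 0.18 (adjusted p = 1.18e-05). Cldn4 had 9.87, 11.99 and 9.95 in lactation, against 8.66 to 10.05 in pubertal glands, so lactation array 2 alone lay clear of the pubertal range (1.84 ± 0.42, adjusted p = 0.000877), and without it the difference was 1.15. Batch 2 did not call Cldn4 (1.87, adjusted p = 0.0625).

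Basal and myoepithelial genes had a negative median of -0.61, with 7 of 15 lower (16.9% of all genes were) and 0 higher, but fewer were called under several other settings: 4 in batch 2, 2 over all batch 2 arrays with pooled spread, 3 without lactation array 3, 4 without pubertal array 4 and 0 at 2-fold or more. Mylk, the kinase that drives smooth muscle contraction, fell by 0.75 (adjusted p = 3.08e-05), and Myh11, smooth muscle myosin, had 11.25, 11.19 and 10.91 in lactation, against 10.89, 11.68, 11.68, 12.06 and 11.67 in pubertal glands (-0.85 ± 0.24, adjusted p = 0.00598). Oxtr, the oxytocin receptor through which milk is let down, had 9.44, 8.42 and 9.01 in lactation, against 10.81, 10.57, 10.23, 9.31 and 9.5 in pubertal glands. Pubertal values of Oxtr split by batch, and the difference with batch terms was -0.61 ± 0.32 (adjusted p = 0.131).

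Extracellular matrix genes were lower without exception: all 27 tested members fell (16.9% of all genes did), with a median difference of -1.68, and batch 2 called 26 of them (9.58% of all genes). Col1a1, the main chain of fibrillar collagen I, had 10.77, 9.57 and 10.32 in lactation, against 13.31, 13.13, 13.28, 13.24 and 13.09 in pubertal glands (-2.95 ± 0.22, adjusted p = 3.4e-11). Pubertal values of Col1a1 were 7.75 times those in lactation on the linear scale. Col3a1, collagen III, had 11.02, 10.11 and 11 in lactation, against 12.74 to 13.19 in pubertal glands (-2.38 ± 0.20, adjusted p = 5.28e-10). Sparc, a collagen-binding glycoprotein, had 12.10, 11.86 and 11.93 in lactation, against 13.20 to 13.49 in pubertal glands (-1.49 ± 0.09, adjusted p = 3.73e-13). Bgn, the proteoglycan biglycan, fell by 1.68 (adjusted p = 4.17e-11), and Col5a1 fell by 2.08 (adjusted p = 7.4e-10). Aspn, asporin, a matrix protein related to biglycan, had 7.01, 7.30 and 6.29 in lactation, against 9.79 to 10.84 in pubertal glands (-3.22 ± 0.33, adjusted p = 1.32e-08).

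Nulliparous glands gave a further point of comparison for the matrix. Col1a1 averaged 11.48 and Col3a1 11.32 in nulliparous glands at day 181, between the lactating and pubertal levels. Against those glands 23 of the 27 matrix genes were lower in lactation (13.5% of all genes were), with differences of -2.08 for Col1a1 and -1.40 for Col3a1. Eln, elastin, had 8.37, 8.09 and 8.04 in lactation, against 10.35, 9.94, 9.96, 9.69 and 9.79 in pubertal glands (-1.63 ± 0.17, adjusted p = 2.14e-08). Nulliparous glands averaged 8.47 for Eln, and the difference from them did not pass (-0.28, adjusted p = 0.289). Nulliparous arrays lie in batches 1 and 3 and none in batch 2, so these values rest on the batch terms.

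**Figure D4:**
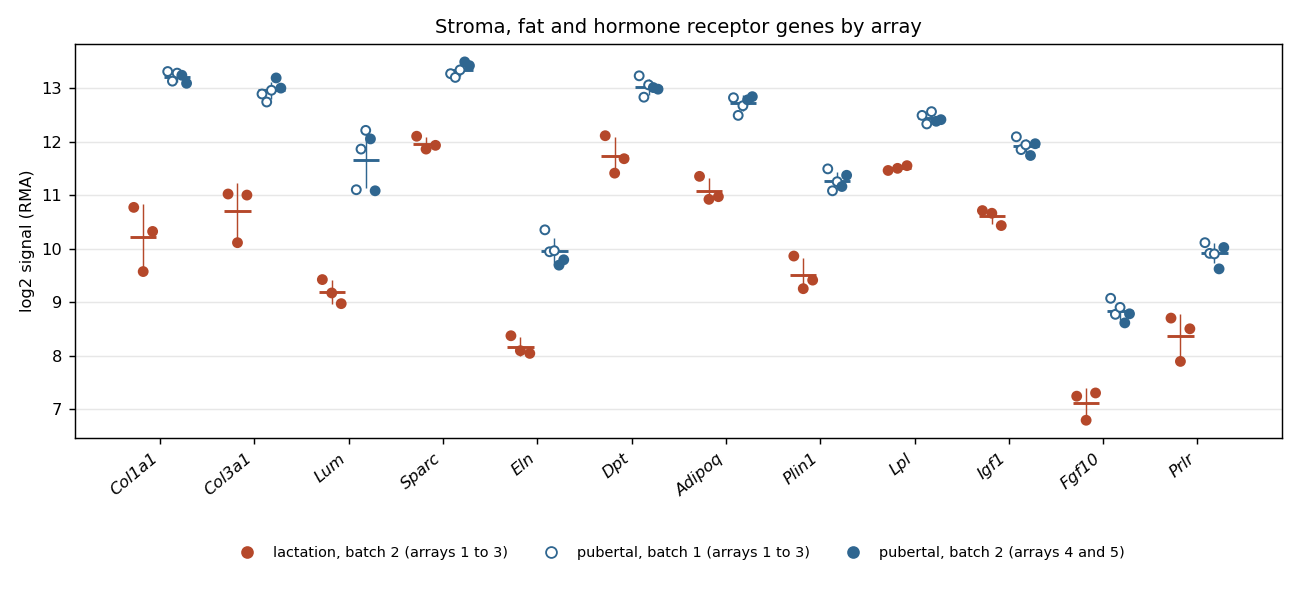
Log2 signal of 12 stromal, fat cell and signalling genes in each array, lactation to the left of pubertal for every gene, filled points for batch 2 and open points for batch 1, with a bar at the mean and a line of 1 SD either way. Every gene shown lies lower in the lactation arrays, by -2.95 for Col1a1 and -0.94 for Lpl.

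Fibroblast markers were lower too, with 11 of 12 tested genes lower (16.9% of all genes were) and 0 higher (23.8%). Prrx1, a mesenchymal transcription factor, had 9.17, 8.78 and 8.65 in lactation, against 10.30 to 11.12 in pubertal glands (-1.51 ± 0.13, adjusted p = 5.28e-10). Dpt, dermatopontin, had 12.11, 11.41 and 11.68 in lactation, against 12.83 to 13.23 in pubertal glands (-1.30 ± 0.13, adjusted p = 1.53e-08). Pdgfra, a growth factor receptor of fibroblasts, fell by 1.12 (adjusted p = 8e-06). Mgp, matrix Gla protein, an inhibitor of calcification, was the member not called, with 12.49, 12.40 and 12.35 in lactation and 11.47 to 12.33 in pubertal glands (0.20 ± 0.18, adjusted p = 0.403). Endothelial genes were mostly not called: 3 of 14 fell (16.9% of all genes did) and 0 rose (23.8%). Plvap, a protein of fenestrated capillaries, fell by 0.92 (adjusted p = 6.19e-05).

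Matrix proteases and their inhibitors changed in both directions, with 7 of 22 higher (23.8% of all genes were) and 8 lower (16.9%). Mmp12, the macrophage elastase, had 11.38, 11.92 and 11.52 in lactation, against 9.78, 9.06, 8.83, 8.55 and 9.45 in pubertal glands (2.57 ± 0.27, adjusted p = 2.46e-08). Ctsd, cathepsin D, a lysosomal protease, rose by 0.94 ± 0.13 (adjusted p = 1.68e-06). Ctsk, cathepsin K, a collagen-degrading protease, had 8.41, 8.03 and 7.92 in lactation, against 10.25 to 11.14 in pubertal glands (-2.42 ± 0.25, adjusted p = 1.29e-08), and Mmp2, gelatinase A, fell by 1.35 (adjusted p = 1.48e-06).

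White fat cell genes were lower for 20 of 24 tested members (16.9% of all genes were) and higher for 0 (23.8%), with a median difference of -0.94. Adipoq, adiponectin, had 11.35, 10.92 and 10.97 in lactation, against 12.82, 12.49, 12.67, 12.78 and 12.84 in pubertal glands (-1.79 ± 0.18, adjusted p = 1.53e-08). Plin1, the droplet coat of fat cells, had 9.86, 9.25 and 9.41 in lactation, against 11.08 to 11.49 in pubertal glands (-1.81 ± 0.23, adjusted p = 3.8e-07). Lpl, lipoprotein lipase, which both fat cells and lactating epithelium make, had 11.46, 11.50 and 11.55 in lactation, against 12.33 to 12.56 in pubertal glands (-0.94 ± 0.13, adjusted p = 2.54e-06). Trarg1, a partner of the insulin-regulated glucose transporter, fell by 1.94 (adjusted p = 9.16e-09). Rbp4, retinol-binding protein 4, is not a member of this list and is named because its fall was among the 12 largest. Rbp4 had 8.14, 7.95 and 8.41 in lactation, against 10.96 to 11.68 in pubertal glands (-2.91 ± 0.24, adjusted p = 2.97e-10). Lep, leptin, had 7.55, 8.25 and 7.52 in lactation, against 8.41, 7.06, 7.47, 8.36 and 8.67 in pubertal glands and was not called (adjusted p = 0.372). Against nulliparous glands 18 of the 24 were lower (13.5% of all genes were).

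Paracrine signals of ductal growth were lower for 18 of 33 tested genes (16.9% of all genes were) and higher for 4 (23.8%), with a median of -0.73. Fgf7, a stromal growth factor for epithelium, had 8.86, 8.83 and 7.93 in lactation, against 9.33, 8.56, 8.91, 9.96 and 10.09 in pubertal glands (-1.49 ± 0.22, adjusted p = 5.47e-06). Wnt5a, a ligand that restrains branching in mouse, had 6.90, 7.03 and 6.53 in lactation, against 7.71 to 8.46 in pubertal glands (-1.08 ± 0.17, adjusted p = 1.06e-05), and Sfrp2, a secreted Wnt modulator, had 8.94, 8.10 and 8.38 in lactation, against 10.02 to 11.29 in pubertal glands (-2.19 ± 0.27, adjusted p = 2.85e-07). The rises included Tgfb2, transforming growth factor beta 2, with 10.37, 10.94 and 10.59 in lactation, against 8.37 to 9.11 in pubertal glands (1.88 ± 0.22, adjusted p = 1.6e-07), and Met, the hepatocyte growth factor receptor, with 10.79 to 11.06 in lactation and 9.60 to 10.11 in pubertal glands (0.91 ± 0.20, adjusted p = 0.000475).

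Of 29 tested genes of STAT3 signalling, acute phase and involution 11 were higher (23.8% of all genes were) and 1 lower. Stat3 had 12.34, 12.91 and 12.26 in lactation, against 11.67 to 12.21 in pubertal glands (0.79 ± 0.15, adjusted p = 0.000153). Socs3, a STAT3 target that damps its signal, had 8.23, 10.08 and 8.61 in lactation, against 7.59 to 8.08 in pubertal glands (1.19 ± 0.32, adjusted p = 0.00406), and without lactation array 2 it was at 0.64 (adjusted p = 0.0955) and in batch 2 at 1.14 (adjusted p = 0.146). Tnfrsf12a, the receptor of the cytokine TWEAK, had 9.14, 11.34 and 9.79 in lactation, against 7.84 to 8.07 in pubertal glands (2.10 ± 0.27, adjusted p = 4.49e-07). Nfil3, a transcription factor, rose by 1.11 ± 0.18 (adjusted p = 1.26e-05). Igfbp5, a protein tied to alveolar cell death in involution, had 13.29, 12.27 and 13.12 in lactation, against 12.71 to 12.88 in pubertal glands (0.09 ± 0.21, adjusted p = 0.763). Clu, clusterin, which also marks involution, was the member that fell, with 11.80, 12.14 and 11.91 in lactation and 12.67 to 12.93 in pubertal glands (-0.85 ± 0.17, adjusted p = 0.000206). Lactation array 2 was the highest of all 8 arrays for Stat3, Socs3 and Tnfrsf12a, and it was the highest of the lactation arrays for the immediate early list.

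Of 19 tested macrophage genes 6 were higher and 2 lower, shares not far from those over all genes (23.8% and 16.9%), with a median difference of 0.04. Gpnmb, a glycoprotein of lipid-loaded macrophages, had 11.87, 11.35 and 12.01 in lactation, against 10.09, 9.04, 8.89, 8.85 and 9.66 in pubertal glands (2.57 ± 0.28, adjusted p = 3.02e-08). Cx3cr1, the fractalkine receptor, which marks macrophages of the mouse mammary ducts, had 8.98, 8.87 and 8.10 in lactation, against 6.92 to 7.70 in pubertal glands (1.6 ± 0.27, adjusted p = 2.68e-05), and Itgax, an integrin of macrophages and dendritic cells, rose by 1.18 ± 0.18 (adjusted p = 9.08e-06). Cd163, a scavenger receptor of stromal macrophages, had 8.25, 8.33 and 7.81 in lactation, against 8.89 to 10.29 in pubertal glands (-1.35 ± 0.34, adjusted p = 0.00224), and Mrc1, the mannose receptor, fell by 0.86 (adjusted p = 0.00368), though in batch 2 it did not pass (-0.67, adjusted p = 0.0874).

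Calls of B and T cell genes depended on the fit. The limma model of all arrays called 0 of 10 B cell genes and 0 of 16 T cell genes at adjusted p under 0.05, and 0 of either at an unadjusted p under 0.05, as did the nulliparous comparison after adjustment. Batch 2 called 8 B cell genes and 6 T cell genes lower in lactation (9.58% of all genes were). The 8 arrays of both groups fitted with batch gave 9 and 10 lower, beside 1480 of all 10986 genes tested. All batch 2 arrays with pooled spread gave 2 and 0 lower, beside 1110 of all 10986 genes. Cr2, complement receptor 2 of B cells, had 4.91, 5.50 and 4.77 in lactation, against 4.95, 5.26, 6.70, 8.39 and 7.88 in pubertal glands. Pubertal arrays 1 and 2 were thus at the lactation level for Cr2 and arrays 4 and 5 far above it, and the difference was -2.30 ± 1.17 in the model (adjusted p = 0.116) and -3.08 ± 0.30 in batch 2 (adjusted p = 0.00128). Ms4a1, the B cell antigen CD20, had 5.96, 6.08 and 5.64 in lactation, against 6.18, 5.36, 6.65, 8.67 and 8.37 in pubertal glands. Jchain, the joining chain of secreted IgA, had 12.56, 12.39 and 11.98 in lactation, against 10.96, 9.56, 10.05, 10.83 and 11.35 in pubertal glands, without overlap and without a call in the model (1.49 ± 0.67, adjusted p = 0.0769), while batch 2 called it (1.22 ± 0.21, adjusted p = 0.00937). The part of B and T cell content in other differences was not tested.

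Interferon-response genes were lower for 11 of 19 tested members (16.9% of all genes were). Irf7, a master regulator of the response, had 8.59, 7.74 and 8.68 in lactation, against 9.65, 9.5, 9.80, 9.28 and 10.25 in pubertal glands (-1.47 ± 0.27, adjusted p = 8.01e-05). Mx2, an antiviral GTPase, had 6.85, 6.31 and 6.89 in lactation, against 7.65 to 9.21 in pubertal glands (-1.88 ± 0.36, adjusted p = 0.000132). Pubertal array 5 was the highest for both, and without it 5 members were called lower. Leaving out lactation array 2 also left 5, and batch 2 called 4 (9.58% of all genes). Against nulliparous glands 0 were lower (13.5% of all genes were) and 1 was higher (21.4%).

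Of 15 tested complement genes 2 were higher (23.8% of all genes were), C3 among them, and 8 were lower (16.9%). C6, a component of the membrane attack complex, had 8.43, 7.87 and 7.92 in lactation, against 9.69 to 10.67 in pubertal glands (-2.16 ± 0.34, adjusted p = 1.02e-05), and C7, the next component, had 10.32, 9.09 and 9.16 in lactation, against 10.65 to 12.15 in pubertal glands (-2.11 ± 0.37, adjusted p = 4.08e-05). Cfd, the fat cell protease adipsin, fell by 1.79 (adjusted p = 3.97e-07), and C1r by 1.14 (adjusted p = 3.04e-06). Mast cell genes were lower for 3 of 9 (16.9% of all genes were). Class II antigen presentation genes were called for 0 of 11 in the limma model, 0 at an unadjusted p under 0.05, and for 1 in batch 2.

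Cell division genes varied widely among pubertal glands. Mki67, the Ki-67 antigen, had 9.26, 8.51 and 8.96 in lactation, against 7.73, 10.03, 10.13, 10.82 and 9.08 in pubertal glands (-0.82 ± 0.69, adjusted p = 0.359). Top2a, topoisomerase II alpha, had 8.05, 7.18 and 7.27 in lactation, against 7.14, 9.05, 9.44, 9.74 and 7.36 in pubertal glands (-1.0 ± 0.67, adjusted p = 0.245). For both genes pubertal arrays 1 and 5 lay within or below the lactation range, and arrays 2 to 4 lay above it. Of 29 tested genes 3 fell (16.9% of all genes did) and 0 rose (23.8%). Ccnd1, cyclin D1, had 7.92, 7.81 and 7.80 in lactation, against 8.77 to 9.88 in pubertal glands (-0.89 ± 0.19, adjusted p = 0.000374).

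Secretory pathway genes of the endoplasmic reticulum rose for 19 of 40 tested members (23.8% of all genes did) and fell for 2 (16.9%). Hspa5, the chaperone BiP, had 13.11, 13.04 and 13.01 in lactation, against 12.68, 12.14, 12.36, 12.20 and 12.02 in pubertal glands (0.81 ± 0.15, adjusted p = 0.000121). Manf, a stress-induced secreted factor, rose by 1.04 ± 0.15 (adjusted p = 3.51e-06), Ost4, a subunit of the glycosylating enzyme, by 0.94 ± 0.15 (adjusted p = 1.54e-05), and Atf6, a sensor of unfolded proteins, by 0.64 ± 0.10 (adjusted p = 1.12e-05). Sec24d, a coat protein of transport vesicles, fell by 0.83 (adjusted p = 0.00014), and Creb3l1, a transcription factor of collagen-secreting cells, by 0.80 (adjusted p = 0.00479). Against nulliparous glands 6 members were higher (21.4% of all genes were) and 3 lower (13.5%), and Hspa5 was 0.23 higher (adjusted p = 0.324). Cytosolic ribosomal protein genes were higher for 1 of 26 (23.8% of all genes were) and lower for 6 (16.9%), with a median of -0.15. Batch 2 called 7 of the 26 lower (9.58% of all genes) and 0 higher. Mitochondrial energy genes were higher for 3 of 31 (23.8% of all genes were) and lower for 5 (16.9%). For them batch 2 called 3 higher (8.79% of all genes) and 0 lower (9.58%).

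The steepest falls outside the lists were of unlike function. Bche, butyrylcholinesterase, had 8.73, 6.69 and 6.70 in lactation, against 11.14, 11.67, 11.66, 11.04 and 11.15 in pubertal glands (-3.74 ± 0.35, adjusted p = 3.2e-09). Lactation array 1 was 2 units above the other two but still below every pubertal gland. Prr27, a proline-rich protein gene, had 11.59, 8.62 and 8.84 in lactation, against 12.70 to 12.98 in pubertal glands (-3.07 ± 0.67, adjusted p = 0.000546), again with array 1 the highest of the lactation arrays. Cxcl13, the chemokine that draws B cells, had 9.37, 9.28 and 7.35 in lactation, against 13.07, 11.18, 11.93, 11.49 and 12.14 in pubertal glands (-3.17 ± 0.66, adjusted p = 0.00039). Igsf10 fell by 2.91 (adjusted p = 3.26e-08), Pi15 fell by 3.01 (adjusted p = 4.31e-08), Ttc6 fell by 3.07 (adjusted p = 6.53e-06) and Elapor1 fell by 3.15 (adjusted p = 5.1e-05), each with lactation arrays below all pubertal arrays. Batch 2 called each of these genes too, with adjusted p from 0.000427 for Igsf10 to 0.0314 for Prr27.

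**Figure D5:**
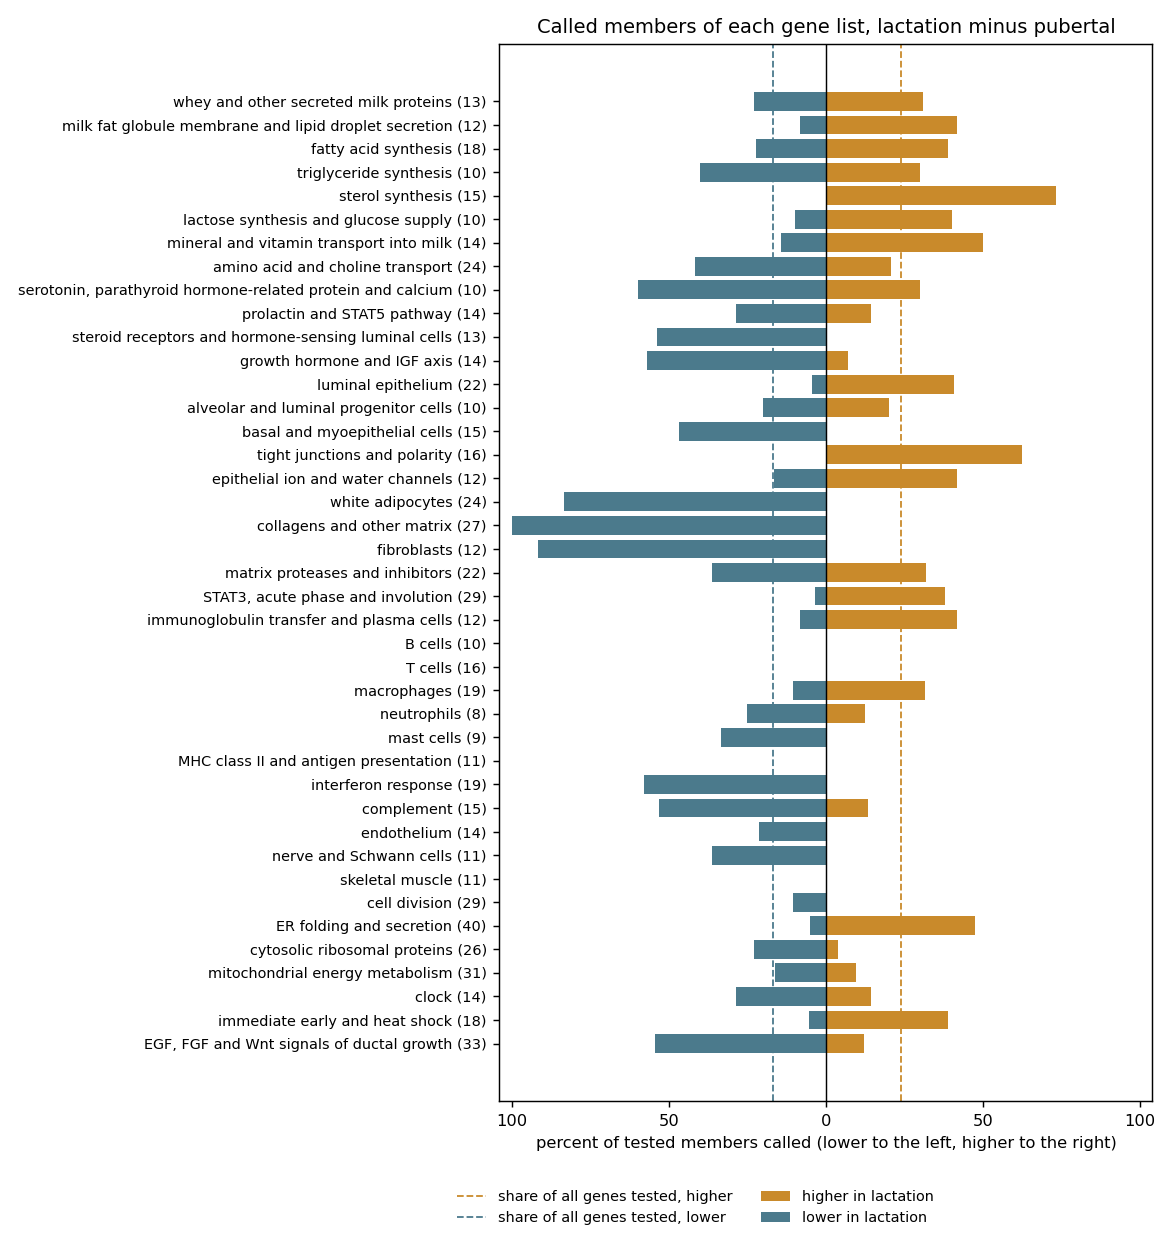
Percent of tested members called at adjusted p under 0.05, higher in lactation to the right and lower to the left, for the gene lists with at least 8 tested members (number tested in brackets). Dashed lines give the share over all 10986 genes, 23.8% higher and 16.9% lower; matrix, fibroblast and white fat lists reach furthest left, and sterol synthesis and tight junctions furthest right.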

How the data were processed

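Whole-transcript Affymetrix arrays measured total RNA of 33 rat mammary samples. Per the submitters' processing notes, the deposited log2 values came from Affymetrix Expression Console with RMA (versions: not given in the sources used here). Its table held 36685 probe sets from 2.405 to 14.228 with 0 missing values. Of these, 18511 named a single symbol, and the probe set of highest mean stood for each of 18166 symbols. Genes above 7.645, the table median, in at least 3 arrays were tested, 10986 in all. limma 3.58.1 in R 4.3.3 fitted stage and batch over all 33 arrays (eBayes with intensity trend, Benjamini-Hochberg adjustment, adjusted p under 0.05). Batch 2 was also fitted alone. Both fits were tested on simulated data in which few genes changed and each gene had the same normal spread at every stage. There 3.11% of calls were false in the model of all arrays and 13.3% in batch 2. Spreads that differ between stages, as for Csn1s2a, were not simulated, so these rates may not hold for the real arrays. Arrays carry no counts, so their number limits the precision. The labels name separate animals without pairing, and sample notes give 5 animals a stage while 3 lactation arrays were analysed here. P-values of the model of all arrays set a difference against the spread within stages and batches over all 33 arrays. Those of batch 2 set it against the spread within the lactation and pubertal arrays of that batch. Named genes were the 12 largest non-overlapping rises and falls, up to 5 called members per list by adjusted p, members of short lists, a fixed panel, and members called against their list, and the text gives a selection of them. The members and lists were chosen with earlier results of these data known. Alternatives covered batch terms, samples, filters, scaling, probe sets and variance models.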

Additional observations from a re-analysis of the deposited data

Results flagged for a closer look

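Of 203 gene and list values tested in the 5 pubertal arrays, 12 had a highest or lowest array separated from the rest by more than Dixon's limit of 0.71, and chance flags about 1 in 20. Array 1 was high for C1r (12.17, others 11.56 to 11.72), Pth1r (8.44, others 8.11 to 8.15), the immediate early and heat shock mean (9.28, others 8.86 to 8.98) and the mean of EGF, FGF and Wnt signals (8.55, others 8.37 to 8.41), and low for Csn3 (13.12, others 13.41 to 13.52). Array 4 was low for Cidec (10.08, others 10.61 to 10.81), Ctsd (11.58, others 11.74 to 11.80), Elapor1 (9.76, others 10.56 to 10.82) and Tgfb2 (8.37, others 8.90 to 9.11), and high for the neutrophil mean (6.85, others 6.61 to 6.67). Array 3 was low for Ost4 (10.65, others 10.85 to 10.89). Array 5 was high for Pigr (8.78, others 6.80 to 6.87). The lactation group, with 3 arrays, was not tested this way.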

How the results depend on the processing

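The 4472 calls (2611 higher, 1861 lower) became 1780 (725 and 1055) with no batch term, 2019 (966 and 1053) in batch 2 alone, 2383 (1273 and 1110) over all batch 2 arrays with pooled spread, and 897 (317 and 580) at 2-fold or more. The 8 arrays with batch gave 1686 higher genes, and a filter at the 75th percentile gave 1195 lower ones. Leaving out 1 array gave 3508 to 4316 calls, 2098 to 2511 higher and 1410 to 1833 lower, fewest without lactation array 2. In batch 2 it gave 402 to 2149 calls, 150 to 1078 higher and 252 to 1088 lower: without pubertal array 4 402, without pubertal array 5 515 and without lactation array 3 1141. With pubertal array 4 or 5 left out the pubertal arm was 1 array, assumed to vary like the lactation arrays. Of 3158 values of the 138 named called genes under alternatives, 3066 kept direction and call, 91 lost the call and 1 turned, Scd at 0.34 against nulliparous glands. Of 460 values of uncalled named genes, 26 passed, with 7 genes called in batch 2, 7 in the 8 arrays with batch and 4 over all batch 2 arrays with pooled spread. Uncalled genes that turned were Btn1a1 (-0.06 with no batch term), Esr1 (0.02 with arrays centred, and -0.24 to 0.06 leaving out arrays), Igfbp5 (-0.11 to 0.40 leaving out arrays) and Stat5b (-0.13 with no batch term, -0.07 against nulliparous glands, -0.09 after quantile normalization, and -0.01 to 0.11 leaving out arrays). The cause was not tested. No paired analysis was possible because the labels give no replicate numbers shared between the groups.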
